A study of Sus scrofa with 8 samples.

Results

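The genes described here build cholesterol and fatty acids or control their building, 35 genes named by symbol in a rule that holds no measured value. These genes, and the lists of related genes below, were chosen with earlier results of these data known. Of the 35 genes, 34 were found among the 22366 features of the deposited tables. The table's own symbol named 32 of them, and the Ensembl IDs of IDI1 and INSIG2 were named through a gene name table. LSS, the enzyme that closes squalene oxide into lanosterol, was not analysed here. Transcript counts came from 8 pig (Sus scrofa) libraries sequenced with paired reads. Lymphoma clones from a lymph node tumour gave 4 libraries and lymphoma clones from a spleen tumour gave 2. All 6 clones were grown in RPMI medium from dissociated tumour cells and passed through 4 rounds of limiting dilution. The reference libraries, 1 each, came from splenocytes enriched on magnetic beads for CD21+ cells (the study's control for B cells) or for CD3+ cells (its control for T cells). RNA was taken from equal numbers of cells. The sources used here do not give genotype, breed, age or the number of animals. No label says that the splenocytes were cultured, so lymphoma and culture cannot be told apart in any comparison of clones with a control.

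Cholesterol is made from acetyl-CoA through mevalonate, isoprenoid diphosphates, squalene and lanosterol, and fatty acids are made from the same acetyl-CoA through malonyl-CoA. In human and mouse cells, both routes are switched on by the sterol regulatory element binding proteins (SREBPs), which SCAP escorts out of the endoplasmic reticulum when sterol is low and INSIG proteins hold back when sterol is plentiful. Resting lymphocytes make little lipid, and dividing lymphocytes raise both routes to build membranes. The roles given below are those known in human and mouse.

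Library totals ran from 16415644 to 27253505 counts, and summed marker genes followed the labelled lineages. Summed over 7 B cell marker genes, the clones held 3360 to 4458 counts-per-million (CPM), 6066 in CD21+ and 322 in CD3+ splenocytes. CR2, which encodes CD21, was not analysed here. Summed over 8 T cell markers, they held 42.7 to 56.1 CPM, against 99.2 in CD21+ and 6204 in CD3+ splenocytes. CD5, at 35.3 to 48.2 CPM in the clones and 10.4 CPM in CD21+, made up most of the clones' sum and was called higher than in CD21+, while 6 of the 7 T cell markers tested were lower. Stromal and endothelial markers summed to 10.8 to 25.6 CPM in the clones, against 242 in CD21+ and 112 in CD3+ splenocytes. PECAM1 alone held 184 CPM in CD21+ and 93.3 CPM in CD3+, and FN1 held 54.9 CPM in CD21+. COL3A1 and DCN stood at 0 in every clone, and at only 1.42 and 0.457 CPM in CD21+. PDGFRB of that list ran the other way, at 3.33 to 10.04 CPM in the clones, against 0.0915 in CD21+ and 0.120 in CD3+ splenocytes (2 counts each). Myeloid markers summed to 84.2 to 128 CPM in the clones, against 224 in CD21+ and 626 in CD3+ splenocytes. ITGAM alone held 142 CPM of the CD21+ sum and 594 CPM of the CD3+ sum, against 32.5 to 67.3 CPM in the clones. CSF1R, CSF3R and MPO stood above CD3+ in every clone. NK markers summed to 17.8 to 27.1 CPM in the clones, against 87.5 in CD21+ and 1202 in CD3+ splenocytes. TBX21 alone held 72.7 CPM of that CD21+ sum, against at most 0.143 CPM in the clones. Members of the myeloid and NK lists that ran the other way against CD21+ were MPO, CSF1R and NKG7. MPO stood at 1.35 to 16.5 CPM in the clones, with no count in either control. CSF1R stood at 28.8 to 48.7 CPM in the clones and 26.6 CPM in CD21+ (not called). NKG7, at 17.6 to 26.95 CPM in the clones and 7.09 CPM in CD21+, made up most of the clones' NK sum. The 8 proliferation markers summed to 2200 to 2760 CPM in the clones, against 1339 in CD21+ and 634 in CD3+ splenocytes. Against the CD21+ library 7 of the 8 were higher and TYMS was lower. Whether division or the mix of cells had a part in the lipid gene differences was not tested. In bulk RNA, fewer cells of a type and less RNA per cell cannot be told apart.

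Most genes of cholesterol and fatty acid synthesis stood higher in the lymphoma clones than in normal CD21+ splenocytes. Of the 34 genes, 25 rose, 3 fell (SCAP, INSIG2 and ELOVL5) and 6 did not pass the test (MVK, PMVK, FDPS, HSD17B7, SREBF2 and INSIG1). Over all 13498 genes tested, 67.2% were called, 34.8% higher and 32.4% lower, so that calls in both directions were common. The median log2 fold change over the 34 genes was 0.88, against 0.05 over all genes tested. A rise of 2-fold or more was called in 16 of the 34, against 22.6% of all genes, and a fall of that size in 1 (SCAP), against 16.7%. All 6 clones stood above the CD21+ library in 27 genes, against 43.2% of all genes, and all 6 stood below it in 4, against 39.9%. Calls are from edgeR's quasi-likelihood test with Benjamini-Hochberg adjustment over all genes tested, at a threshold of 0.05, and each log2 fold change is given ± its SE from that fit. Sizes of rises and falls without a unit below are log2 fold changes. The lone CD21+ library was assumed to vary like the clones, and the p-values rest on the spread between clones alone, which may be technical. Scaled by total counts in place of trimmed means, the median of all genes moved to 0.35, that of the 34 genes stood at 1.18, and the share of called genes that were higher moved to 66.7%, against 51.8%.

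**Figure D1:**
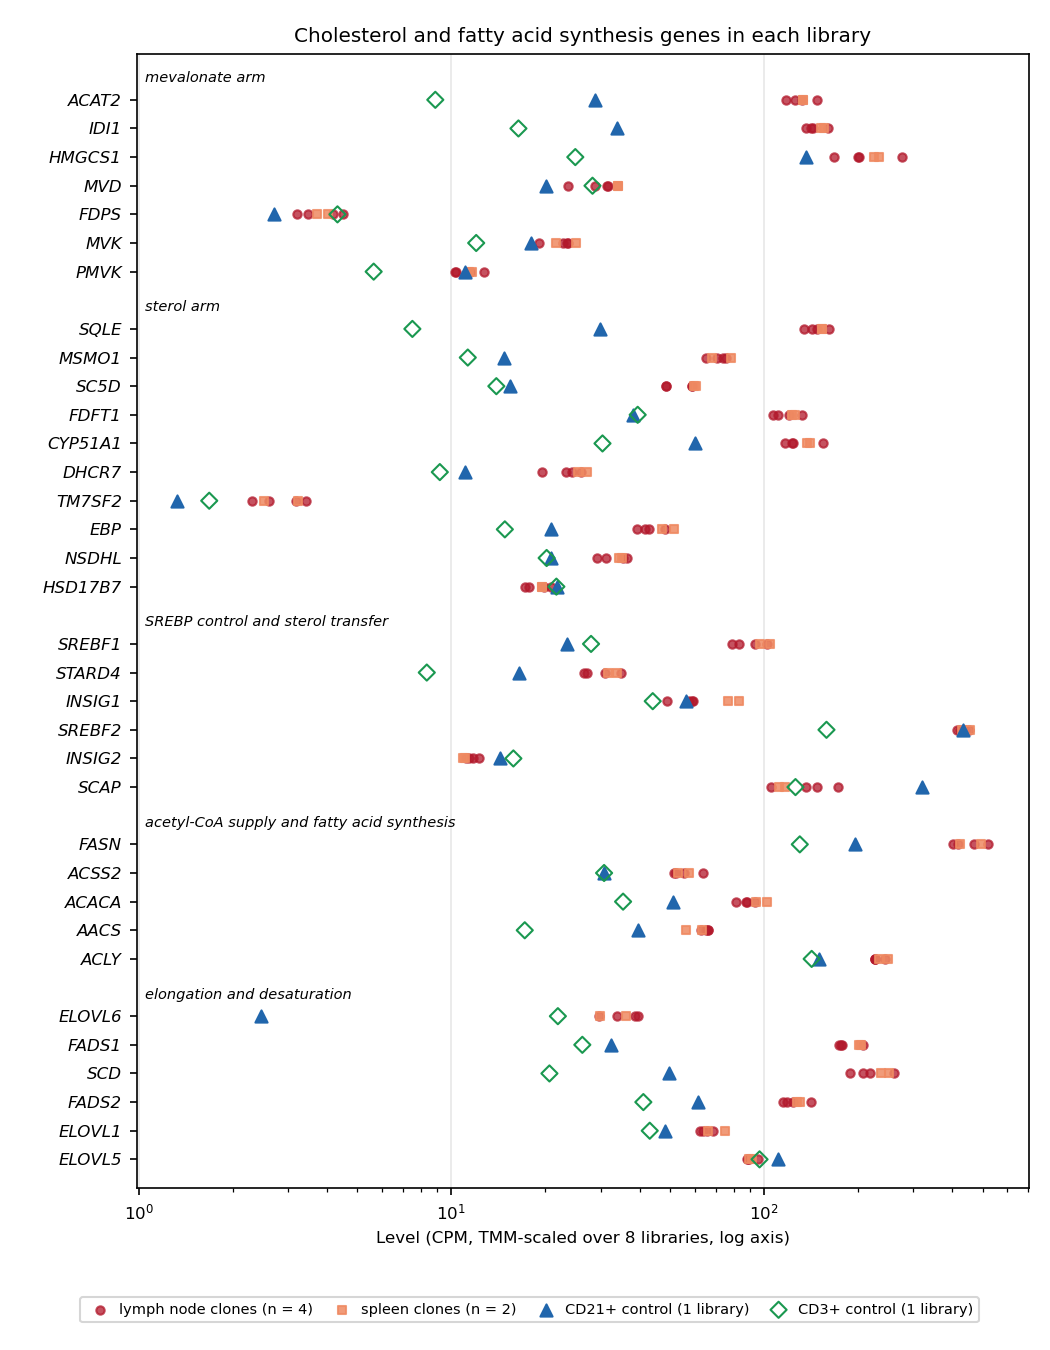
Level of each of the 34 genes in every library, in CPM on a log axis, grouped by pathway arm and ordered within an arm by the difference from the CD21+ control. Each symbol is 1 library. For SQLE, ACAT2, IDI1, MSMO1, SCD and FADS1 the 6 clones form a tight cluster to the right of both controls, while for SREBF2 they surround the CD21+ control and for SCAP they lie to its left.

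The mevalonate arm was uneven, with 4 of its 7 genes higher than in the CD21+ library, 0 lower and 3 not called. ACAT2, the cytosolic thiolase that joins acetyl-CoA units at the start of the route, stood at 118 to 147 CPM in the 6 clones (median 133), against 28.9 CPM in CD21+ and 8.89 CPM in CD3+ splenocytes. Its log2 fold change over CD21+ was 2.18 ± 0.14 (edgeR adjusted p = 4.05e-06). IDI1, which isomerises isopentenyl diphosphate, stood at 136 to 161 CPM in the 6 clones (median 148), against 33.99 CPM in CD21+ and 16.4 CPM in CD3+ splenocytes, a log2 fold change of 2.12 ± 0.12 (edgeR adjusted p = 2.65e-06). For both genes, every clone stood above both controls. HMGCS1, which makes HMG-CoA, reached 167 to 276 CPM in the 6 clones (median 213), against 137 CPM in CD21+ and 24.9 CPM in CD3+ splenocytes. All 6 clones lay above CD21+, with lymph node clone 1 highest and lymph node clone 4 lowest. The log2 fold change was 0.66 ± 0.23 (edgeR adjusted p = 0.0323), and the call was lost without spleen clone 1 (adjusted p = 0.0539) or without spleen clone 2 (adjusted p = 0.0544). MVD, which decarboxylates mevalonate diphosphate, stood at 23.7 to 34.2 CPM in the clones, against 20.04 CPM in CD21+, with a log2 fold change of 0.61 ± 0.19 (edgeR adjusted p = 0.0226).

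The kinases between HMG-CoA and MVD did not pass. MVK, which phosphorylates mevalonate, stood at 19.1 to 25.1 CPM in the 6 clones (median 23.1), against 17.98 CPM in CD21+ and 12.01 CPM in CD3+ splenocytes. All 6 clones lay above CD21+, by a log2 fold change of 0.32 ± 0.15 (edgeR adjusted p = 0.082). The call was gained without lymph node clone 4 (0.37, edgeR adjusted p = 0.0157) and with total-count scaling (0.63, edgeR adjusted p = 0.0104). PMVK, the next kinase, stood at 10.2 to 12.7 CPM in the 6 clones (median 11.4), against 11.02 CPM in CD21+ and 5.64 CPM in CD3+ splenocytes. The CD21+ value lay inside the range of the clones, 4 of which were above it, and the log2 fold change was 0.029 ± 0.16 (edgeR adjusted p = 0.882). FDPS, which makes farnesyl diphosphate, was thinly counted, at 3.21 to 4.51 CPM in the 6 clones (median 3.87), against 2.70 CPM in CD21+ and 4.32 CPM in CD3+ splenocytes. Its 59 counts in CD21+ give an exact Poisson interval of 2.05 to 3.48 CPM (95%, counting error only). All 6 clones lay above the CD21+ value, with a log2 fold change of 0.51 ± 0.26 (edgeR adjusted p = 0.121). With total-count scaling FDPS was called higher (0.81, edgeR adjusted p = 0.0308).

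The sterol arm, which leads out of the isoprenoids through squalene to cholesterol, was higher almost throughout, with 9 of its 10 genes higher, 0 lower and 1 not called. FDFT1, squalene synthase, stood at 107 to 132 CPM in the 6 clones (median 121), against 38.2 CPM in CD21+ and 39.4 CPM in CD3+ splenocytes, a log2 fold change over CD21+ of 1.64 ± 0.13 (edgeR adjusted p = 1.65e-05). SQLE, which oxidises squalene, stood at 134 to 162 CPM in the 6 clones (median 150.3), against 29.96 CPM in CD21+ and 7.51 CPM in CD3+ splenocytes, a log2 fold change of 2.30 ± 0.13 (edgeR adjusted p = 2.01e-06). Neither gene's clones overlapped either control. MSMO1, which removes methyl groups from the sterol ring, stood at 65.02 to 78.7 CPM in the 6 clones (median 72.3), against 14.7 CPM in CD21+ and 11.3 CPM in CD3+ splenocytes, with a log2 fold change of 2.29 ± 0.13 (edgeR adjusted p = 2.83e-06). SC5D, a late desaturase, stood at 48.5 to 60.4 CPM in the 6 clones (median 58.9), against 15.4 CPM in CD21+ and 13.9 CPM in CD3+ splenocytes, with a log2 fold change of 1.86 ± 0.17 (edgeR adjusted p = 3.13e-05). The lowest clone of each lay well above both controls. CYP51A1 (the lanosterol demethylase), DHCR7 (a last-step reductase), EBP (a sterol isomerase) and NSDHL (a partner of MSMO1) rose by log2 fold changes of 1.14, 1.13, 1.11 and 0.69, with all 6 clones above CD21+ in each. TM7SF2, a sterol reductase, rose by 1.11 ± 0.33 (edgeR adjusted p = 0.0176) but was thinly counted, at 2.31 to 3.44 CPM in the clones and 1.33 CPM in CD21+, where its 29 counts give a Poisson interval of 0.888 to 1.91 CPM. HSD17B7, the sterol ketone reductase of the same demethylating complex as NSDHL and MSMO1, was the exception, at 17.3 to 20.8 CPM in the 6 clones (median 19.5), against 21.8 CPM in CD21+ and 21.7 CPM in CD3+ splenocytes. All 6 clones lay below both controls, by a log2 fold change of -0.19 ± 0.12 (edgeR adjusted p = 0.19) against CD21+, a difference that did not pass. With total-count scaling that difference turned to 0.11.

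The SREBP system itself moved in parts. SREBF1, which encodes the SREBP that leans towards fatty acid genes, stood at 78.9 to 104 CPM in the 6 clones (median 95.3), against 23.4 CPM in CD21+ and 27.98 CPM in CD3+ splenocytes. No clone overlapped a control, and the log2 fold change over CD21+ was 1.99 ± 0.18 (edgeR adjusted p = 3.06e-05). SREBF2, which encodes the SREBP that leans towards cholesterol genes, stood at 413 to 456 CPM in the 6 clones (median 434), against 434 CPM in CD21+ and 158 CPM in CD3+ splenocytes. The CD21+ value lay in the middle of the clones, 3 of which were above it, and the log2 fold change was -0.002 ± 0.081 (edgeR adjusted p = 0.985). It turned positive in 6 of 13 alternative settings, to 0.30 with total-count scaling (adjusted p = 0.00656) and to at most 0.011 in the others. SCAP fell, at 105 to 173 CPM in the 6 clones (median 126), against 321 CPM in CD21+ and 126 CPM in CD3+ splenocytes. Every clone lay below CD21+ and the clones lay on both sides of CD3+, with a log2 fold change over CD21+ of -1.29 ± 0.22 (edgeR adjusted p = 0.000973).

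The INSIG genes and STARD4 differed from one another. INSIG1, itself a target of SREBPs, stood at 49.1 to 83.2 CPM in the 6 clones (median 59.1), against 56.3 CPM in CD21+ and 44.1 CPM in CD3+ splenocytes. The 2 spleen clones were its 2 highest clones and lymph node clone 4, alone among the clones, lay below CD21+. The log2 fold change over CD21+ was 0.18 ± 0.26 (edgeR adjusted p = 0.548). INSIG2 stood at 10.9 to 12.2 CPM in the 6 clones (median 11.2), against 14.3 CPM in CD21+ and 15.8 CPM in CD3+ splenocytes, with every clone below both controls. Its log2 fold change over CD21+ was -0.33 ± 0.13 (edgeR adjusted p = 0.0444). That call was lost without a low-count filter, with total-count scaling (-0.034) and without lymph node clone 2, lymph node clone 3, spleen clone 1 or spleen clone 2. RefSeq also gives the symbol INSIG2 to a pseudogene on chromosome 7 besides the gene on chromosome 15, so its counts are uncertain. STARD4, which carries sterol between membranes, rose by 0.91 ± 0.17 (edgeR adjusted p = 0.00173), with 26.6 to 34.8 CPM in the clones and 16.4 CPM in CD21+.

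All 5 genes of acetyl-CoA supply and fatty acid synthesis rose over CD21+, with a median log2 fold change of 0.83. FASN, the fatty acid synthase that makes palmitate, stood at 403 to 522 CPM in the 6 clones (median 447), against 196 CPM in CD21+ and 130.2 CPM in CD3+ splenocytes. Every clone lay above both controls, and the log2 fold change over CD21+ was 1.21 ± 0.16 (edgeR adjusted p = 0.000233). ACLY, which cleaves citrate to acetyl-CoA in the cytosol, rose by 0.64 ± 0.087 (edgeR adjusted p = 0.000291), with 226 to 249.7 CPM in the clones and 149.8 CPM in CD21+. ACSS2, which makes acetyl-CoA from acetate, and AACS, which activates acetoacetate, rose by 0.85 ± 0.13 and 0.67 ± 0.11. ACACA, the carboxylase that makes malonyl-CoA, rose by 0.83 ± 0.13. These 4 rises were each under 2-fold.

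The enzymes that lengthen and desaturate fatty acids held the gene with the largest difference from CD21+, ELOVL6, with 5 of 6 genes higher and 1 lower. ELOVL6, which lengthens palmitate to stearate, stood at 29.6 to 39.6 CPM in the 6 clones (median 35.1), against 2.47 CPM in CD21+ and 21.9 CPM in CD3+ splenocytes. The CD21+ library stood far below all 7 others. Its 54 counts give a Poisson interval of 1.86 to 3.22 CPM, and the log2 fold change was 3.80 ± 0.25 (edgeR adjusted p = 5.02e-06). SCD, which puts the first double bond into stearate and palmitate, stood at 188 to 261 CPM in the 6 clones (median 227), against 49.7 CPM in CD21+ and 20.6 CPM in CD3+ splenocytes, with a log2 fold change of 2.18 ± 0.20 (edgeR adjusted p = 2.81e-05). FADS1, a front-end desaturase of polyunsaturated fatty acids, stood at 174 to 208 CPM in the 6 clones (median 189), against 32.5 CPM in CD21+ and 26.2 CPM in CD3+ splenocytes, with a log2 fold change of 2.54 ± 0.15 (edgeR adjusted p = 2.9e-06). The clones of both genes lay far above both controls. FADS2, the partner desaturase, rose by 1.03 ± 0.12 (edgeR adjusted p = 0.000131). RefSeq (Sscrofa11.1) places FADS2 and FADS1 side by side on chromosome 2, 68758 bases apart. ELOVL1, which makes very long saturated chains, rose by 0.47 ± 0.11. ELOVL5, which lengthens polyunsaturated chains, stood at 88.5 to 95.4 CPM in the 6 clones (median 89.6), against 111 CPM in CD21+ and 96.8 CPM in CD3+ splenocytes, with every clone below both controls. It fell by 0.30 on the log2 scale against CD21+ (SE 0.072, adjusted p = 0.0065), a call lost with total-count scaling, where it stood at 0.0038.

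**Figure D2:**
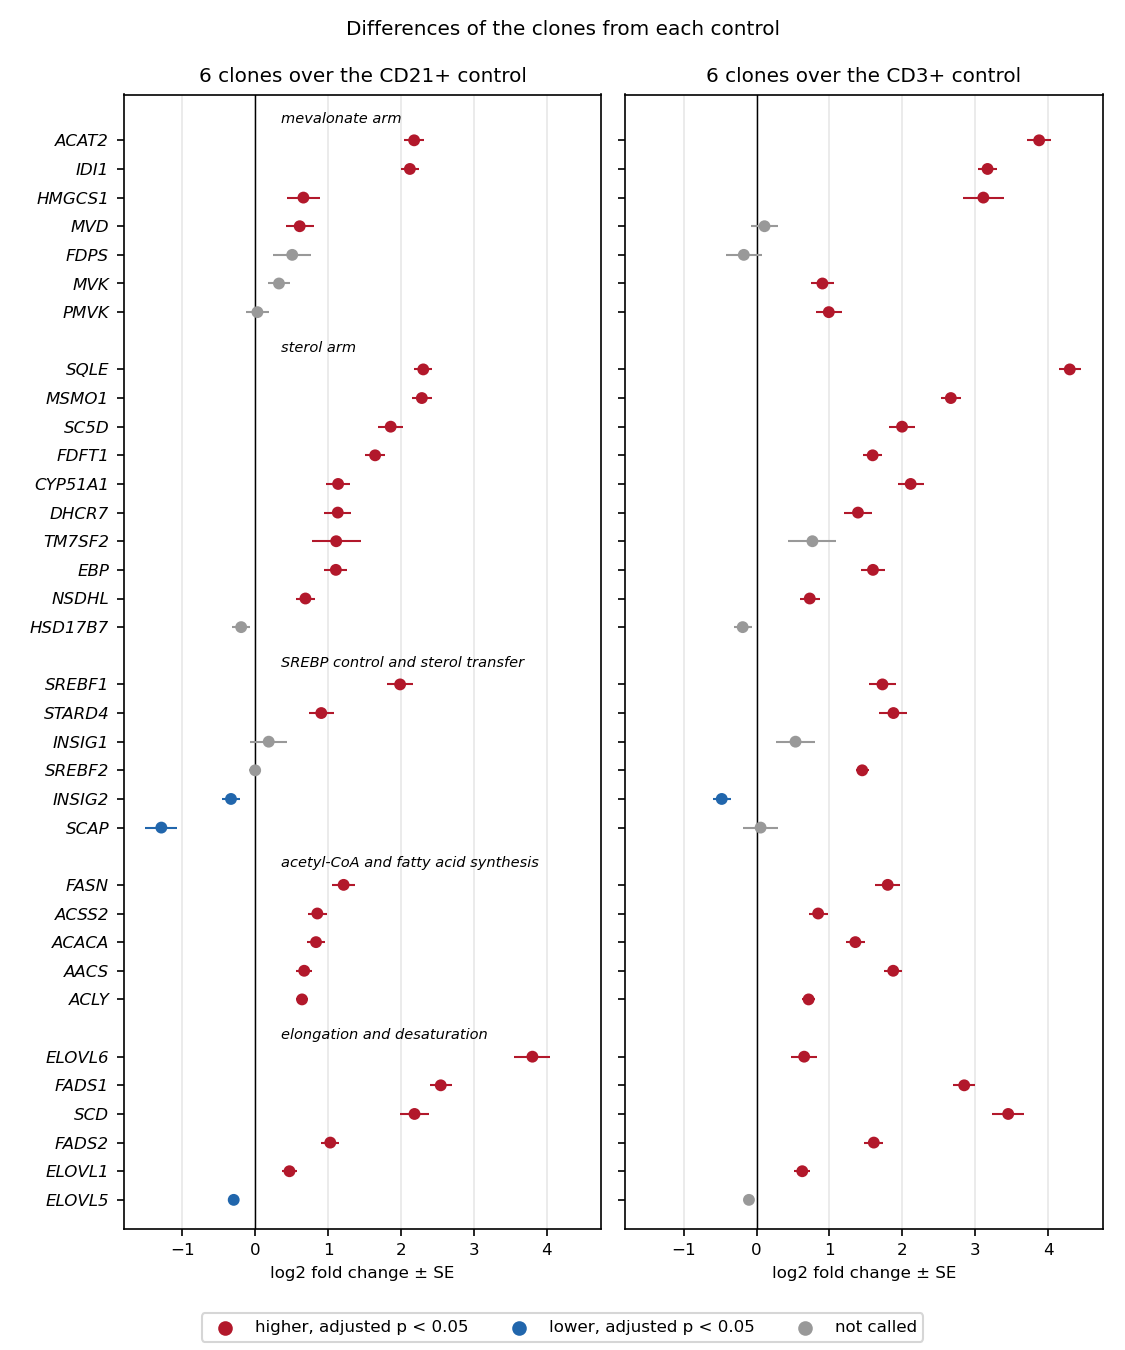
Log2 fold change of the 6 clones over the CD21+ control (left) and over the CD3+ control (right) for each gene, with the SE of the fit as the bar. Red marks genes called higher, blue genes called lower and grey genes not called. Most points lie right of 0 in both panels, SCAP and SREBF2 differ between the panels, and ELOVL6 is the rightmost gene of the left panel.

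Positions were found in RefSeq by symbol for 32 of the 34 genes, so overlaps of IDI1 and CYP51A1 were not checked. Some members share sequence span with a neighbour in RefSeq. No source used here states the strandedness of the libraries, so reads in the shared stretch cannot be assigned to one gene by strand. ACACA shares 19475 bases of its span with C12H17orf78, ELOVL6 shares 4608 bases with a long noncoding RNA gene, and SC5D shares 1485 bases with another. FADS2 overlaps 2 long noncoding RNA genes, by 6679 and 2776 bases. ACAT2 and TCP1 share 94 bases, PMVK and KCNN3 share 113, and STARD4 shares 14 with a long noncoding RNA gene.

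Against CD3+ splenocytes the same pathway stood higher again. Of the 34 genes, 26 rose, 1 fell (INSIG2) and 7 did not pass (MVD, FDPS, TM7SF2, HSD17B7, SCAP, INSIG1 and ELOVL5). Among all 13560 genes tested, 72.0% were called, 36.8% higher and 35.1% lower. The median log2 fold change was 1.42 over the 34 genes and 0.05 over all genes. A rise of 2-fold or more was called in 19 genes, against 24.0% of all genes, and a fall of that size in 0, against 20.4%. All 6 clones lay above the CD3+ library in 28 genes, against 44.4%, and below it in 3, against 41.6%. Both comparisons used the same 6 clones, and 23 genes were called higher in both. The share of all genes called higher in both was not counted, so this number has no background beside it. With total-count scaling, the median of all genes moved to 0.51, that of the 34 genes to 1.88, 30 genes were called higher and 0 lower, and the share of called genes that were higher was 68.7%, against 51.2%.

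SQLE had the largest difference from CD3+ of the 34 genes, 4.30 ± 0.15 (edgeR adjusted p = 1.45e-07) on the log2 scale. ACAT2 followed with 3.88 ± 0.16 (edgeR adjusted p = 3.3e-07) and SCD with 3.45 ± 0.22 (edgeR adjusted p = 3.34e-06). IDI1 and HMGCS1 came next, at 3.17 ± 0.14 and 3.11 ± 0.29, then FADS1 and MSMO1, at 2.85 ± 0.15 and 2.67 ± 0.14. HMGCS1 had differed from CD21+ by 0.66, and its control levels were 137 CPM in CD21+ and 24.9 CPM in CD3+. SREBF2 rose by 1.45 ± 0.091 (edgeR adjusted p = 3.12e-06) against CD3+, with every clone above that library. SCAP did not pass against CD3+, at 0.055 ± 0.24 (edgeR adjusted p = 0.851), and its sign turned in 2 alternative settings, the filter of 1 CPM in 2 libraries (-0.0081) and without lymph node clone 1 (-0.039). ELOVL6 rose by 0.65 ± 0.18 (edgeR adjusted p = 0.0116), with all 6 clones above CD3+. INSIG2 fell by 0.48 (SE 0.12, adjusted p = 0.00813), a call lost with total-count scaling (-0.023). FDPS, SCAP and SREBF2 had log2 fold changes of opposite sign against the 2 controls, with FDPS at -0.18 ± 0.25 against CD3+.

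The controls also differed from each other, in 1 library each and so without a test. The CD21+ library held more than the CD3+ library in 26 of the 34 genes, with a median log2 ratio of 0.37, against -0.013 over all genes at 1 CPM or more. It was 2-fold or more higher in 8 genes, against 13.4% of those genes, and 2-fold or more lower in 1, against 17.2%. HMGCS1 stood 5.49-fold higher in CD21+, SQLE 3.99-fold and ACAT2 3.25-fold. SREBF2 and SCAP, the cholesterol SREBP and its escort, stood 2.74-fold and 2.55-fold higher there. ELOVL6 was the gene 2-fold or more lower, at 2.47 CPM in CD21+ and 21.9 CPM in CD3+, a ratio of 0.113.

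**Figure D3:**
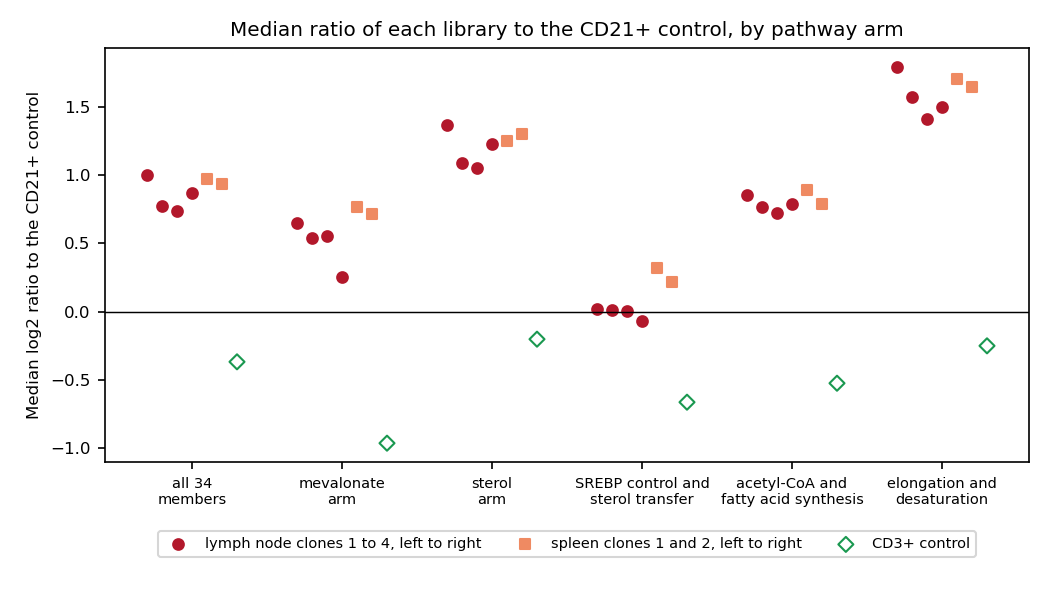
Median log2 ratio of each library to the CD21+ control over all 34 genes and over each pathway arm. Every clone lies above 0 in every arm but the SREBP control and sterol transfer arm, where the lymph node clones lie near 0, and the CD3+ control lies below 0 in every arm.

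The clones held these genes at similar levels. Over the 6 clones the coefficient of variation of the 34 genes ran from 2.85% (ELOVL5) to 20.2% (INSIG1), with a median of 8.30%, against 11.102% over all genes tested. SCAP, at 19.5%, and HMGCS1, at 17.02%, followed INSIG1. The median log2 ratio to CD21+ over the 34 genes ran from 0.74 to 1.002 between clones. By arm, it ran from 1.41 to 1.80 in elongation and desaturation, from 1.06 to 1.37 in the sterol arm, from 0.72 to 0.89 in acetyl-CoA supply and fatty acid synthesis, from 0.25 to 0.77 in the mevalonate arm and from -0.070 to 0.32 in SREBP control and sterol transfer. Lymph node clone 1 was the highest clone for 16 of the 34 genes and spleen clone 2 for 9. Lymph node clone 4 was the lowest for 15 and lymph node clone 3 for 12. Such ranks were not counted over all genes, and lymph node clone 1 had the smallest library total (16415644 counts).

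No gene of the pathway passed the test between lymph node and spleen clones. Of 12580 genes tested, 0.00% were called by edgeR, and 605 (4.81%) had an unadjusted p under 0.05. None of the 34 genes was called, and 1, INSIG1, had an unadjusted p under 0.05. INSIG1 stood at 57.6, 58.99, 59.2 and 49.1 CPM in lymph node clones 1 to 4, against 83.2 and 76.8 CPM in spleen clones 1 and 2. The groups did not overlap, and the log2 fold change of lymph node over spleen clones was -0.50 ± 0.093 (edgeR, unadjusted p = 0.00101, adjusted p = 0.942). By DESeq2, INSIG1 was called (adjusted p = 0.0121), among 20 genes in all, and by limma-voom 0 genes were. SCAP, its partner in the sterol sensor, stood at 173, 148, 136 and 105 CPM in the lymph node clones, against 112 and 117 CPM in the spleen clones. Lymph node clone 4 lay below both spleen clones and the other lymph node clones lay above them, with a log2 fold change of 0.30 ± 0.18 (edgeR adjusted p = 0.942).

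Beside INSIG1, the groups did not overlap in MVD, SC5D, ACACA and INSIG2. The spleen clones stood above every lymph node clone in 4 genes, against 8.17% of all genes, and below every one in 1 gene, INSIG2, against 7.33%. MVD stood at 23.7 to 31.8 CPM in the lymph node clones and 34.2 and 34.2 CPM in the spleen clones, with a log2 fold change of -0.24 ± 0.13 (edgeR adjusted p = 0.942). The fold change was negative, with the lymph node clones lower, in 27 of the 34 genes. The share of negative fold changes over all genes was not counted, so no site trend is read from this number. The median was -0.061 over the 34 genes and 0.0034 over all genes tested. None of the 34 genes passed after adjustment.

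**Figure D4:**
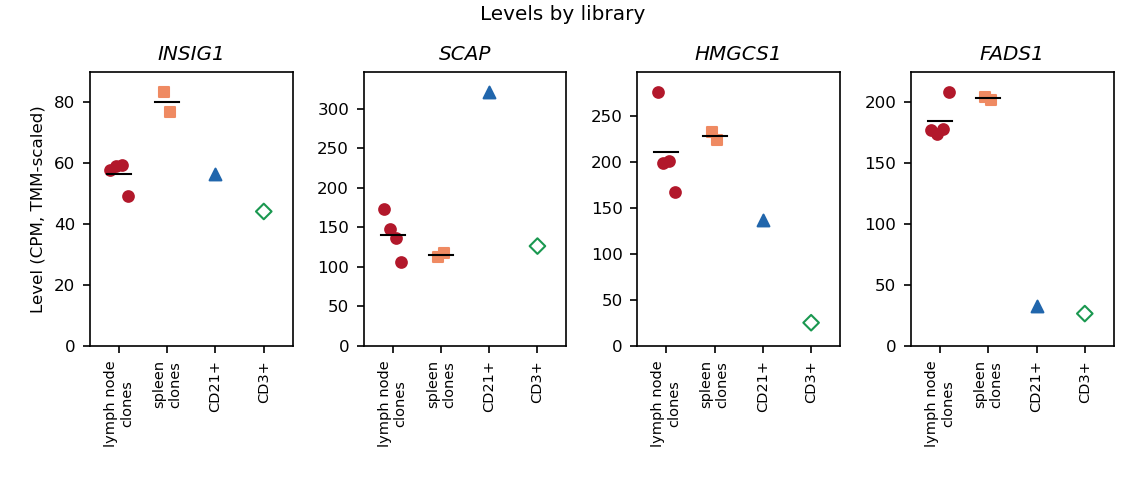
Level of INSIG1, SCAP, HMGCS1 and FADS1 in each library, in CPM from 0, with a bar at the mean of each clone group. INSIG1 separates the spleen clones, at 76.8 and 83.2 CPM, from the lymph node clones, while the groups overlap in the other genes.

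Genes next to the pathway were counted in lists, which were chosen with earlier results of these data known. Of 94 related genes tested against CD21+, 42 rose, 25 fell and 27 did not pass, with a median log2 fold change of 0.24. Of all genes tested, 34.8% rose and 32.4% fell. Among the other mevalonate and sterol enzymes, 4 of 6 tested rose and 0 fell, against 34.8% and 32.4% of all genes. ERG28, a scaffold of sterol demethylation, and LBR, a sterol reductase of the nuclear envelope, rose by 0.73 ± 0.076 (edgeR adjusted p = 6.24e-05) and 0.67 ± 0.12 (edgeR adjusted p = 0.00154). ERG28 averaged 58.3 ± 1.27 CPM in the clones (SD, n = 6), against 35.04 CPM in CD21+ and 35.1 CPM in CD3+. ACAT1, the mitochondrial thiolase, stood at -0.028 and did not pass.

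Of 9 sterol uptake genes tested, 4 rose, 3 fell and 2 did not pass, against 34.8% higher and 32.4% lower among all genes. VLDLR, a receptor for triglyceride-rich particles, averaged 51.97 ± 5.66 CPM in the clones (SD, n = 6), against 0.686 CPM in CD21+ and 3.48 CPM in CD3+. NPC1L1, a sterol transporter best known from gut, averaged 16.1 ± 6.82 CPM in the clones and had no count in CD21+, at least 117-fold higher against a floor of 3 counts in that library. Its call was lost with limma-voom (9.40, adjusted p = 0.0579). LRP8, another lipoprotein receptor, and MYLIP, a ligase that degrades lipoprotein receptors, fell, by log2 fold changes of -1.98 and -0.90.

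Of 6 genes of sterol efflux and its LXR regulators tested, 0 rose and 5 fell, against 34.8% and 32.4% of all genes. ABCG1, which exports cholesterol, averaged 18.6 ± 4.36 CPM in the clones (SD, n = 6), against 128 CPM in CD21+ and 41.2 CPM in CD3+, with a log2 fold change over CD21+ of -2.79 ± 0.25 (edgeR adjusted p = 2.55e-05). NR1H3 and NR1H2, the LXR receptors, fell, by log2 fold changes of -2.27 and -0.73. APOE, a lipid carrier made in quantity by macrophages, had 2 counts over the 6 clones and 137 in CD21+, a ratio of 0.00219 (95% counting interval 0.000262 to 0.00806). CH25H, which makes an oxysterol that holds SREBPs back, fell, with a log2 fold change of -3.17. Myeloid markers summed to 84.2 to 128 CPM in the clones and 224 CPM in CD21+, of which ITGAM alone held 142 CPM. Of these 8 markers, 6 lay below CD21+ in every clone and 2, CSF1R and MPO, lay above it. CD163 had no count in any clone and 16.3 CPM in CD21+. CD68 stood at 0.107 to 2.82 CPM in the clones and 21.2 CPM in CD21+. The part of myeloid cells in the efflux list was not tested. ABCA1, the other main exporter, stood at 5.87 ± 2.52 CPM in the clones and 9.38 CPM in CD21+ and did not pass.

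Of 11 genes for the proteases and degradation of the SREBP system, 4 rose, 3 fell and 4 did not pass, against the same shares. RNF145, a ligase that acts on SCAP in mouse liver, averaged 53.6 ± 2.32 CPM in the clones, against 305 CPM in CD21+, a log2 fold change of -2.51 ± 0.07 (edgeR adjusted p = 1.03e-07). POR, which gives electrons to CYP51A1 and SQLE, rose by 1.74. MBTPS2, one of the proteases that release SREBPs, rose by 0.44, and MBTPS1, the other, stood at -0.02 and did not pass.

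Of the other genes of fatty acid synthesis and elongation, 13 of 19 tested rose, 2 fell and 4 did not pass, against 34.8% higher and 32.4% lower among all genes, with a median log2 fold change of 1.15. ELOVL2, which makes very long polyunsaturated chains, averaged 78.6 ± 9.01 CPM in the clones (SD, n = 6) and had no count in either control, at least 573-fold higher than CD21+. ACACB, the mitochondrial carboxylase, averaged 5.71 ± 1.67 CPM and had no count in CD21+, at least 41.6-fold higher, while CD3+ held 1.14 CPM. HACD1, a dehydratase of elongation, rose by 5.77 ± 0.21 (edgeR adjusted p = 3.43e-07). SLC25A1, which exports citrate to ACLY, rose by 1.36. HACD4 had 2 counts over the 6 clones and 28 in CD21+, a ratio of 0.0107 (0.00124 to 0.0425), and FADS3, a relative of FADS1 and FADS2, fell, with a log2 fold change of -2.96. The lists were described by counts and medians, and no list was tested as a set.

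**Figure D5:**
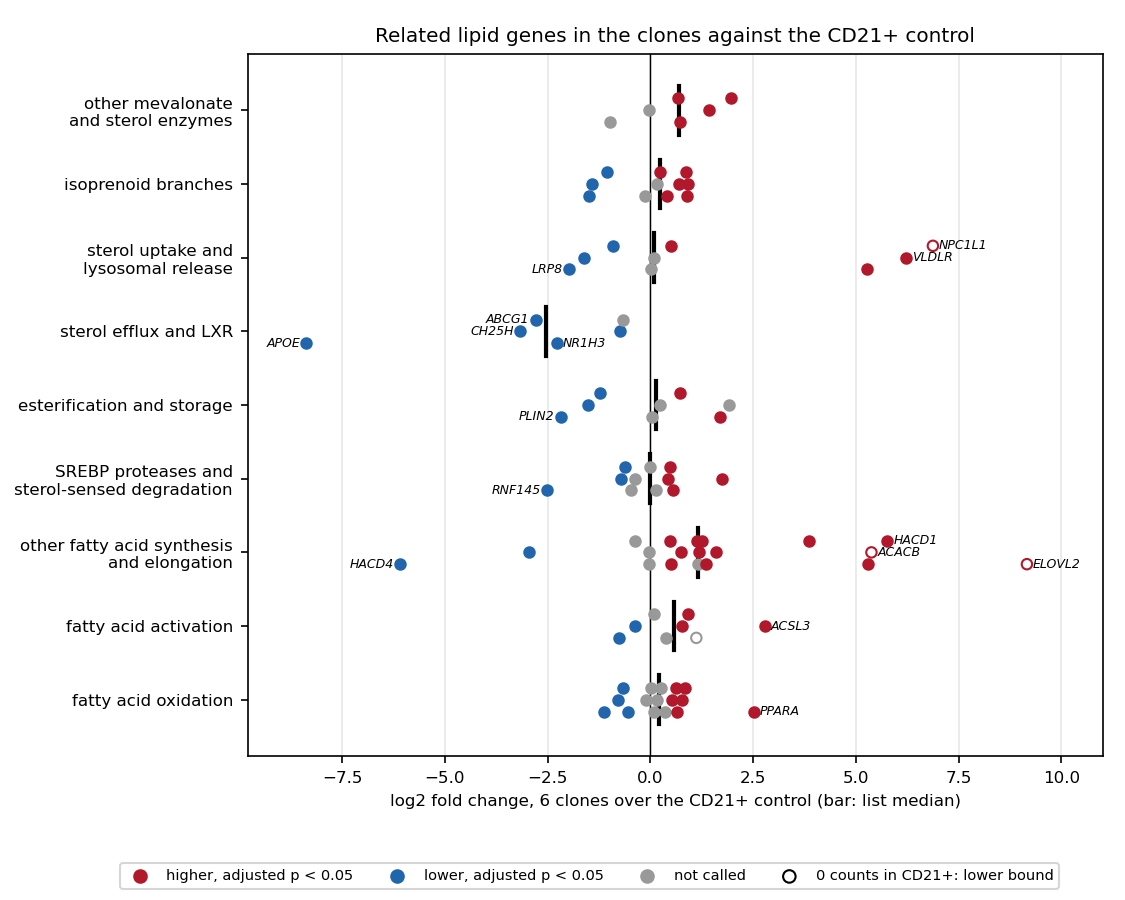
Log2 fold change of the 6 clones over the CD21+ control for the related genes, by list, with a bar at the list median. Red points were called higher, blue lower and grey not called, and open points are lower bounds for genes with no count in CD21+. The efflux list lies wholly left of 0 and most of the other fatty acid synthesis and elongation genes lie right of it.

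The authors' deposited table, made from the same 7 libraries, gives a false discovery rate under 0.05 to 25 of the 34 genes that were higher and to 1 that was lower, SCAP. In that table ELOVL5 had a false discovery rate of 0.0981 and INSIG2 of 0.352, so the falls of these genes did not pass there. DESeq2 and limma-voom, like the test used here, each called 3 of the 34 genes lower, SCAP, INSIG2 and ELOVL5.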

How the data were processed

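RNA was measured in 8 libraries. The submitters' processing notes name Trimmomatic, Bowtie2 and edgeR, and per the series text the genome was Sscrofa11.1; versions, counting tool, annotation and strandedness were not given in the sources used here. The authors deposited read counts per gene for 7 and for 8 libraries, identical where shared, with RPM (counts scaled to the library total), their false discovery rates (p-values) and a signed fold change, treated as a score. The 2 lines without a feature ID were left out.

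Levels are CPM scaled by TMM factors over all 8 libraries. Tests were two-sided quasi-likelihood F-tests in edgeR 4.0.16 (TMM, filterByExpr, Benjamini-Hochberg over all genes tested, threshold 0.05), with the libraries of each comparison alone, after the code was tested on simulated data. The SE of a log2 fold change is its size divided by the root of F. Alternatives were RLE and total-count scaling, no filter, 1 CPM in 2 libraries, DESeq2 1.42.0, limma-voom (limma 3.58.1), a fit over all 8 libraries, a replicate block and leaving out each clone. A fold against a count of 0 is a bound from 3 counts in that library; ratios on 1 to 3 counts have 95% counting intervals, and these, like the Poisson intervals, cover counting error only. All 34 genes passed the filters on low counts.

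The members and lists were chosen with earlier results of these data known. Values over the clones (lowest, median and highest) and in each control are given for the 12 genes with the largest called difference from CD21+, those lower or not called there, those of opposite sign against the controls and the SREBP regulators; from each related list, at most 4 genes with the largest called difference are named under this rule, and others were chosen after their values were seen. Some related genes are counted in their lists and not reported here by name.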

Additional observations from a re-analysis of the deposited data

Results flagged for a closer look

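Single libraries stood apart from the rest of their group in 5 of 68 groups examined (the 34 genes, each over the 6 clones and over the 4 lymph node clones), where chance gives about 5%. AACS stood at 56.2 CPM in spleen clone 2, below the 62.7 to 66.3 CPM of the other clones. INSIG1 stood at 49.1 CPM in lymph node clone 4, below the 57.6 to 59.2 CPM of the other lymph node clones. FADS1 stood at 208 CPM in the same clone, above 174 to 177 CPM in the other lymph node clones and close to both spleen clones. ACLY stood at 243 CPM in lymph node clone 1, above 226 to 227 CPM in its group. ELOVL5 stood at 95.4 CPM in that clone, above 88.5 to 89.4 CPM in its group.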

How the results depend on the processing

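Of 442 values of the 34 genes against CD21+ under alternative settings, 421 kept their direction and their side of the threshold. The count of genes called higher stayed at 24 to 26 when each clone was left out, and 28 were called higher with total-count scaling. With total-count scaling the count lower than CD21+ was 1 and the median 1.18, and against CD3+ these were 0 and 1.88. Calls of a rise were gained with that scaling by MVK and FDPS against CD21+, and by MVD, TM7SF2 and INSIG1 against CD3+. That scaling turned HSD17B7 to 0.11, ELOVL5 to 0.0038 and SREBF2 to 0.30 against CD21+. Against CD3+ it turned FDPS to 0.28, HSD17B7 to 0.26 and ELOVL5 to 0.35 (edgeR adjusted p = 0.00438). SREBF2 against CD21+ also turned to 0.011 without a filter, 0.0028 with all 8 libraries, and -0.016 to 0.011 over the clones left out. PMVK against CD21+ turned to -0.00051 with the filter of 1 CPM in 2 libraries, and ran from -0.0078 to 0.054 over the clones left out. SCAP against CD3+ turned to -0.0081 with that filter and ran from -0.039 to 0.11 over the clones left out. The causes were not tested.

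Between lymph node and spleen clones, DESeq2 called 20 of the 12580 genes tested and 1 of the 34, INSIG1, lower in the lymph node clones. The fit with the clone number as a replicate block called 570 of those 12580 genes. It called 4 of the 91 related genes tested (HACD2, OXSM and SYVN1 among them) and 2 of the 34. SCAP was higher (0.50, edgeR adjusted p = 0.0287) and INSIG1 was lower (-0.44, edgeR adjusted p = 0.0287). These counts are not read as a result about the pathway. Only numbers 1 and 2 occur at both sites, so the site difference in that fit rests on those clones. Little is left there to measure the spread, and its calls are weak evidence. The labels do not say that a number marks a shared source, so the numbers were not taken to pair the clones. The deviations of same-numbered clones from their group means correlated at 0.23 for number 1 and -0.051 for number 2. With 2 spleen clones, the deviations of one are the reverse of the other's, so these values are not separate checks. They cannot decide whether the numbers pair the clones. Leaving out clones gave 0 to 1 genes called, the 1 without lymph node clone 4.

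The control groups hold 1 library each, so no spread between normal animals was measured. TM7SF2, ELOVL6 and FDPS have the fewest counts of the 34 genes in CD21+, 29, 54 and 59, which limits the precision of their differences.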

Other observations

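Isoprenoid branches, which draw on the same farnesyl diphosphate, held 6 of 11 tested genes higher than in CD21+, 3 lower and 2 not called, against 34.8% higher and 32.4% lower among all genes. DHDDS, of dolichol synthesis, averaged 38.8 ± 1.15 CPM in the clones (SD, n = 6) and 20.95 CPM in CD21+, and PDSS2, of ubiquinone synthesis, rose by a log2 fold change of 0.92 ± 0.14 (edgeR adjusted p = 0.00045). COQ2, a later ubiquinone enzyme, averaged 18.96 ± 2.46 CPM, against 53.6 CPM in CD21+ and 66.2 CPM in CD3+, with a log2 fold change over CD21+ of -1.50 ± 0.16 (edgeR adjusted p = 8.25e-05). RABGGTB, which prenylates RAB proteins, fell, with a log2 fold change of -1.06.

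Genes that store, activate or burn fatty acids were counted against the same shares. Of 8 storage genes tested, 2 rose, 3 fell and 3 did not pass. PLIN2, a coat protein of lipid droplets, fell, with a log2 fold change of -2.18 ± 0.36 (edgeR adjusted p = 0.000823), and PNPLA2 and LIPE, both lipases of stored fat, fell, at -1.23 and -1.52, while PLIN3, another droplet coat protein, rose by 1.70. Of 8 activation genes tested, 3 rose and 2 fell, with ACSL3 at 94.1 ± 5.34 CPM in the clones, against 13.6 CPM in CD21+ and 13.4 CPM in CD3+. Of 16 oxidation genes tested, 6 rose, 4 fell and 6 did not pass, with a median log2 fold change of 0.20. CPT1A, which admits fatty acids to mitochondria, stood at 41.2 ± 9.33 CPM in the clones and 31.98 CPM in CD21+ and did not pass. PPARA, a regulator of oxidation, rose by 2.52 ± 0.47 (edgeR adjusted p = 0.00175) from 9 counts in CD21+.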
